A study of Mus musculus with 46 samples.

Results

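The 48 genes described here encode nucleolar factors that make ribosomes. The list of symbols that sets them uses no measured value, although it was drawn up with earlier results of these data known, and all 48 were found among the 9857 symbols that stand on 1 entry in both count tables of the study. The study asked how loss of Ctu1, an enzyme that thiolates the wobble uridine of the tRNAs for lysine, glutamine and glutamate, and inhibition of mTOR change protein synthesis. EPP2 cells, a murine pancreatic cancer line, carried Cas9 under a doxycycline-inducible promoter in a lineage derived from a single-cell clone. In the Ctu1 iKO cultures, Cas9 was induced with 300 ng/ml doxycycline for 4 days in the presence of a pair of guide RNAs against Ctu1. Control cultures carried guide RNAs against non-coding regions or received no doxycycline, and the sources used here do not say which applies to each library. All cultures then received DMSO or 300 nM torin 1, an inhibitor of mTOR kinase, for 2 h. Both ribosome footprints and polyadenylated RNA were read in 23 cultures: 6 control with DMSO, 6 control with torin 1, 5 Ctu1 iKO with DMSO and 6 Ctu1 iKO with torin 1. All footprint libraries were used, and RNA-seq libraries of replicates 1 to 3 of each group.

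Footprint libraries held 4602092 to 52907878 counts (median 15387951, 23 libraries) and the RNA-seq libraries used here held 129881946 to 293648854 (12 libraries). The tables held 0 odd counts for RNA-seq, and those libraries were sequenced from both ends, so these totals are not numbers of independent fragments, and calls among the factors were the same in number with these counts divided by 2. In the DMSO libraries, Ctu1 itself had 2.57 ± 0.708 counts per 1e+06 counts (CPM) in control footprints (SD, n = 6) and 1.76 ± 0.406 in Ctu1 iKO (SD, n = 5), a log2 change of -0.54 ± 0.29 (SE, adjusted p = 0.353 in edgeR). Its transcript level was 4.59 ± 0.0896 CPM in control and 4.66 ± 0.336 in Ctu1 iKO (SD, n = 3 each), so neither assay separated the genotypes at this gene, and gene counts do not resolve the segment cut by the guides. On the axis that separates torin 1 from DMSO over all genes, computed without the libraries of the same number, all 23 footprint libraries and the 12 RNA-seq libraries lay on the side of their labels, whereas 6 of the 11 RNA-seq libraries of replicates 4 to 6 did not, and those 11 were not used. Of the cell type markers, 3 of 7 for pancreatic epithelium and duct (Krt8, Krt18 and Krt19) were listed in both tables. Of those for fibroblasts, 3 of 4 were (Pdgfrb, Pdgfra and Lum), while none of the acinar, leukocyte or endothelial markers was listed in both tables. The summed markers moved with torin 1. Fibroblast markers came to 38.5 to 56.0 footprint CPM in control with DMSO, 47.3 to 78.6 in control with torin 1, 28.5 to 53.1 in Ctu1 iKO with DMSO and 63.4 to 164 in Ctu1 iKO with torin 1, and to 30.1 to 45.0, 45.2 to 63.7, 34.8 to 51.3 and 44.2 to 106 transcript CPM in the same order. Epithelial markers came to 284 to 342, 222 to 310.2, 312 to 406 and 262 to 315 footprint CPM, and to 261 to 282, 341 to 386, 292 to 358 and 494 to 544 transcript CPM, where torin 1 lay above DMSO without overlap in both genotypes. Their part in the results below was not tested.

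Ribosomes are built in the nucleolus, where RNA polymerase I transcribes the rRNA precursor, small nucleolar ribonucleoproteins modify it, and separate sets of factors fold and cut it into the small-subunit and large-subunit particles. mTORC1 promotes this at several steps, among them RNA polymerase I transcription and the translation of mRNAs that begin with a 5′ terminal oligopyrimidine (TOP) tract, which include those of the ribosomal proteins. Proteins of the nucleolus are often rich in lysine, and AAA, a lysine codon, is among the codons read by the tRNAs that Ctu1 modifies.

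Coding sequences of the factors (GENCODE M21, 1 per gene) were rich in lysine codons. AAA made up a median of 3.50% of their codons, against 2.19% over the 9590 genes with a sequence, and was above that median in 38 of the 48 factors. It was at 3.37% over 74 other ribosome biogenesis factors and 3.38% over 78 cytosolic ribosomal proteins. The glutamate codon GAA made up 3.53% against 2.78% over all genes (28 of 48 above) and the glutamine codon CAA 1.08% against 1.04% (24 of 48 above), and AAA was 39.8% of the lysine codons against 38.2% (26 of 48 above). Lysine made up 9.13% against 5.87% (40 of 48 above), and in the 30 codons densest in lysine a factor had a median of 9 lysines against 5 over all genes. The highest AAA shares were those of Nop58 (8.40%), Npm1 (7.53%) and Ncl (7.07%), and the lowest was that of Fbl (0.612%). The lysine-densest stretches of 30 codons in 4 factors are shown because AAA is read by a tRNA that Ctu1 modifies, and AAA codons in frame are in capitals. All are coding, on GRCm38: Npm1 at chr11:33156066-33156714 (minus strand, interrupted by an intron), Nop58 at chr1:59709046-59709135 (plus strand), Ncl at chr1:86357348-86357437 (minus strand) and Utp14a at chrX:48273094-48273756 (plus strand, interrupted by an intron).
Npm1: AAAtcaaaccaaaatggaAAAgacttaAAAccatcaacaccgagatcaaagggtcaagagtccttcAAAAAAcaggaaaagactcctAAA
Nop58: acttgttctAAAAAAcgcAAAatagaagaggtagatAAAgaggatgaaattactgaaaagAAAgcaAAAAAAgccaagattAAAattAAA
Ncl: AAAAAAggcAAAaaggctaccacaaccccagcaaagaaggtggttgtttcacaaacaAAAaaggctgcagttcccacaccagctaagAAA
Utp14a: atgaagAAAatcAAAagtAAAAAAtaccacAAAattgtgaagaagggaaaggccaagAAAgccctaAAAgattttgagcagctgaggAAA
Of 30 codons, lysine took 8 in Npm1, 11 in Nop58, 10 in Ncl and 13 in Utp14a, and AAA took 6, 9, 5 and 8 of them.

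Promoters (RefSeq, GRCm38.p6, 250 bases before to 50 after each annotated start) were matched for 39 of the 48 factors. Npm1 and Rrs1 were among those without a match, so their starts were not examined. The E-box CACGTG, which is its own reverse complement and is bound by MYC among others, occurred in 8 of the 39 (20.5%), in 14 of the 67 other ribosome biogenesis factors with a promoter (20.9%) and in 12.5% of the 7829 genes of the tables with a promoter. The count of 8 takes in the 50 bases after the start. Examples with the E-box, in capitals, within the 250 bases before it are shown for Nop2 (chr6:125131796-125131855, plus strand), Utp18 (chr11:93885767-93885826, minus strand) and Nol11 (chr11:107189392-107189451, minus strand). The transcripts of these factors are described below.
Nop2: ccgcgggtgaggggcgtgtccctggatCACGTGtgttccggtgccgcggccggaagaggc
Utp18: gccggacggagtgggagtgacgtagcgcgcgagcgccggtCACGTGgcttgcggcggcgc
Nol11: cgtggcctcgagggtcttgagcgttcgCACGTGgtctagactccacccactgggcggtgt
An annotated start with C followed by at least 4 pyrimidines, the letter pattern of a TOP mRNA, was found in 2 of the 39 factors (5.13%), in 2.96% of all genes and in 24.6% of the cytosolic ribosomal protein genes. These were Nol11 (chr11:107189367-107189381, minus strand) and Utp3 (chr5:88554462-88554476, plus strand), whose first 15 transcribed bases are shown with the leading pyrimidines in capitals.
Nol11: CTCTTCCgcccgcca
Utp3: CTTTCCCagactctc
These matches are letters in annotated windows, and start sites were not measured in these cells.

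The factors were read at very different rates. In control cells with DMSO, footprints per kb of coding sequence were highest for Npm1 (nucleophosmin, a nucleolar chaperone) at 6776 ± 327 CPM per kb (SD, n = 6). Ncl (nucleolin, an RNA-binding protein of the nucleolus) followed at 521 ± 109 CPM per kb and Nop58 (a core protein of box C/D ribonucleoproteins) at 407 ± 49.8. Npm1 lay above every other factor in all libraries, and the ranges of Ncl and Nop58 overlapped. The lowest densities were those of Rrp12 (11.8 ± 2.96), Utp20 (9.91 ± 2.36), Utp14a (9.62 ± 1.78) and Nol6 (9.57 ± 2.01), 4 factors of small-subunit assembly whose ranges overlapped. The median over the factors was 51.7 CPM per kb against 18.2 over 9590 genes, and 43 of the 48 lay above the latter.

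In every group and both assays, replicate 1 had the lowest mean level of the factors. On the mean log2 CPM over the 48 factors, control footprints lay between 6.50 and 7.08 with DMSO (median 6.89) and between 5.92 and 6.67 with torin 1 (median 6.62). Ctu1 iKO footprints lay between 6.46 and 6.81 with DMSO (median 6.78) and between 5.96 and 6.58 with torin 1 (median 6.48). With replicate 1 set aside, the lowest DMSO library (6.70 in control, 6.68 in Ctu1 iKO) lay above the highest torin 1 library (6.67 and 6.58), and with it the groups overlapped. In transcripts, the means were 6.82, 6.94 and 7.15 in control with DMSO and 6.36, 6.69 and 6.85 with torin 1, and 6.74, 6.88 and 6.94 in Ctu1 iKO with DMSO and 6.32, 6.62 and 6.77 with torin 1. In sum, the factors took 13691 ± 1381 footprint CPM in control with DMSO and 10539 ± 1755 with torin 1, and 11449 ± 1031 and 8103 ± 1158 in Ctu1 iKO (SD, n = 6, 6, 5 and 6). Npm1 alone took 5936 ± 286 of these with DMSO and 4272 ± 553 with torin 1 in control, and 4456 ± 519 and 2221 ± 289 in Ctu1 iKO. In transcripts, the sum over the factors was 13795 ± 1389 CPM with DMSO and 12651 ± 1715 with torin 1 in control, and 12312 ± 843 and 12273 ± 1610 in Ctu1 iKO (SD, n = 3 each).

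**Figure D1:**
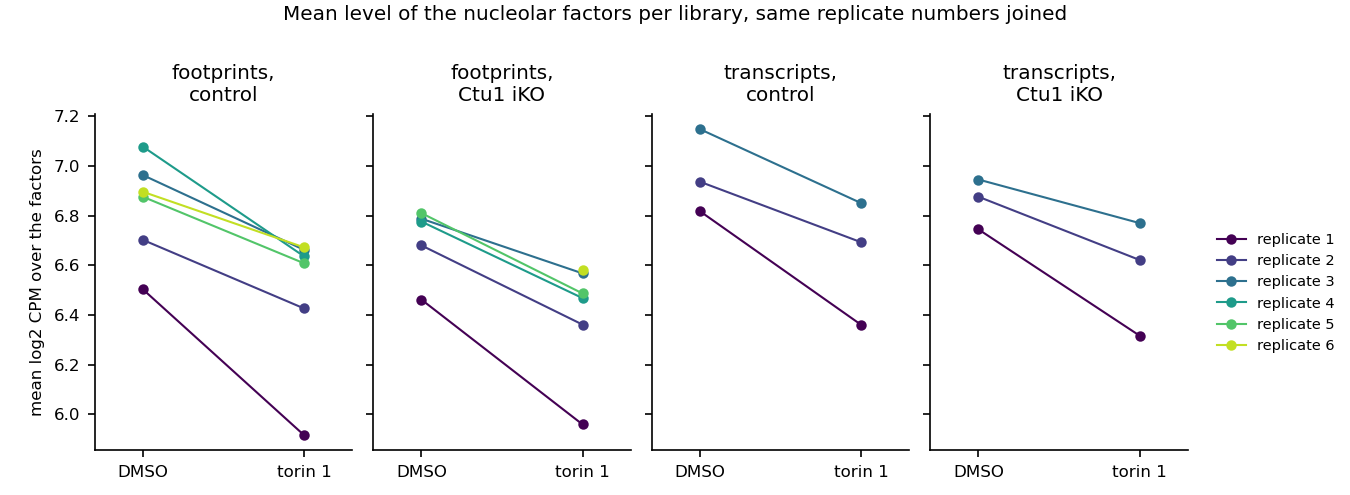
Mean log2 CPM over the 48 factors in each library (vertical axis), with DMSO and with torin 1, for footprints (left 2 panels) and transcripts (right 2 panels) in control and Ctu1 iKO; each point is a library and lines join the same replicate numbers. Every line falls from DMSO to torin 1, and replicate 1 is the lowest point of each group, at 5.92 in control footprints with torin 1.

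The first question was how torin 1 changed the translation of these factors in control cells. Footprints of 8 of the 48 fell at an adjusted p under 0.05 and none rose, where 4.33% of the 9856 genes tested were called lower and 2.91% higher. The 8 were Npm1, the RNA polymerase I factor Tcof1, and 6 large-subunit factors: Rrs1, Nop2, Nip7, Gtpbp4, Rrp1b and Nop16. The median log2 change over the factors was -0.30, against 0.01 over all genes, and 47 of the 48 were below 0, as were 4666 of the 9856 genes. At an unadjusted p under 0.05, 28 factors were lower and 0 higher, where 10.6% and 10.5% of all genes were, and DESeq2 called 15 lower and 0 higher, where it called 5.95% and 4.89% of all genes. Because footprints are compared as shares of a library, a fall common to all genes would not appear, and in these bulk cultures a fall cannot be told apart between fewer cells that use a gene and less use per cell.

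Of the abundant proteins, Npm1 had 5432 to 6163 footprint CPM with DMSO (median 6046) and 3332 to 4736 with torin 1 (median 4464). The groups did not overlap, and the footprint level fell by 0.47 on the log2 scale (SE 0.09, adjusted p = 0.00451), a change of -28.0%. Ncl had 735 to 1338 CPM with DMSO and 262 to 1116 with torin 1, which overlap (log2 change -0.39 ± 0.26, adjusted p = 0.446). The box C/D core proteins, which include the methyltransferase Fbl, gave log2 footprint changes of -0.22 ± 0.15 for Fbl, -0.34 ± 0.14 for Nop56 and -0.16 ± 0.12 for Nop58, none called in this fit. The box H/ACA group ranged from -0.57 ± 0.19 for its chaperone Nolc1 (adjusted p = 0.0812) to 0.00 ± 0.10 for Gar1, with the pseudouridine synthase Dkc1 at -0.09 ± 0.13. With the replicate number as a block, given below, Ncl, Fbl, Nop56, Nhp2 and Nolc1 were called lower.

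Among the RNA polymerase I factors, Tcof1, the treacle protein that couples rRNA transcription to processing, had 205 to 262 footprint CPM with DMSO (median 233) and 148 to 202 with torin 1 (median 181). All torin 1 libraries were below all DMSO libraries, and the level fell by 0.37 on the log2 scale (SE 0.09, adjusted p = 0.0175). Polr1b, the second largest subunit of the polymerase, had 58.9 to 118 CPM with DMSO and 33.1 to 72.5 with torin 1, with the lowest DMSO value in replicate 1 (log2 change -0.61 ± 0.19, adjusted p = 0.0612). Mybbp1a changed least in this group (-0.06 ± 0.17). None of the 19 UTP-A, UTP-B and other small-subunit factors was called in footprints in this fit, while 11 of the 19 were called lower with the replicate number as a block, given below. The UTP-A complex, which joins the nascent transcript first, ranged from -0.41 ± 0.17 (Utp4) to -0.08 ± 0.17 (Nol11), with Heatr1 at -0.23 ± 0.24, and the UTP-B complex from -0.40 ± 0.12 (Utp18) to -0.15 ± 0.25 (Wdr36), with Wdr3 at -0.28 ± 0.24. The remaining small-subunit factors ranged from -0.58 ± 0.18 (Rrp12) to -0.06 ± 0.19 (Nol6), with Utp20 at -0.12 ± 0.24.

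The large-subunit factors held the greatest falls. Rrs1, which brings part of the central protuberance into the pre-ribosome, had 49.7 to 80.5 footprint CPM with DMSO (median 62.0) and 24.5 to 42.6 with torin 1 (median 30.6). The groups did not overlap and the level fell by 0.998 on the log2 scale (SE 0.16, adjusted p = 0.00094), a change of -49.9%. Nip7, a pre-rRNA processing factor, had 69.0 to 86.1 CPM with DMSO and 47.2 to 61.0 with torin 1, again without overlap (log2 change -0.57 ± 0.09, adjusted p = 0.000989). Nop16 fell from 117 to 163 CPM to 91.9 to 114 CPM (log2 change -0.42 ± 0.10, adjusted p = 0.015). Nop2, an rRNA methyltransferase, had 51.4 to 111 CPM with DMSO and 18.6 to 51.6 with torin 1, where the highest torin 1 value, in replicate 4, reached the lowest DMSO value, in replicate 1 (log2 change -0.92 ± 0.22, adjusted p = 0.0195). Rrp1b (log2 change -0.49 ± 0.10, adjusted p = 0.00749) and the GTPase Gtpbp4 (-0.56 ± 0.14, adjusted p = 0.028) were called with overlapping groups. At the other end of this group, Ebna1bp2 gave -0.02 ± 0.07 and Pes1, of the PES1-BOP1-WDR12 complex, -0.12 ± 0.15. Groups did not overlap, with torin 1 lower, for 7 factors, and for 3.43% of all genes. Gtpbp4 was no longer called when control DMSO replicate 3, 4, 5 or 6 or control torin 1 replicate 2 or 4 was left out (adjusted p up to 0.0698), and Nop2 when control DMSO replicate 4 was (adjusted p = 0.0509), while Npm1, Tcof1, Nip7, Nop16, Rrs1 and Rrp1b were called in all 12 such fits. Same-numbered control cultures deviated together, and with the replicate number as a block 30 factors were called lower and 0 higher, where 10.6% and 9.88% of all genes were. Of the small-subunit factors these were Heatr1, Wdr43 and Utp4 of the UTP-A complex, Wdr3, Utp6 and Utp18 of the UTP-B complex, and Utp14a, Rrp9, Rrp12, Nol10 and Dimt1 (adjusted p between 0.000175 and 0.0413). The block also added Polr1b and Ubtf to Tcof1, called Ncl, Fbl, Nop56, Nhp2 and Nolc1, and called 10 of the 15 large-subunit factors. With replicates 1 to 3 alone, 0 factors were called (1.09% of all genes lower), and without replicate 1 of every group 12 were (4.15%). A term for replicates 1 and 2 against 3 to 6, a split that no label gives, called 22 lower (6.86%).

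In Ctu1 iKO cells, torin 1 lowered the footprints of 9 factors and raised none, where 4.52% of 9855 genes were called lower and 3.48% higher. They were Npm1, the UTP-A factor Wdr43, the small-subunit factors Utp3 and Dimt1, and the large-subunit factors Rrs1, Nop2, Nip7, Ddx21 and Rrp1b. The median log2 change was -0.23, against 0.02 over all genes, with 44 of 48 factors and 4715 of 9855 genes below 0. Without adjustment, 21 factors were lower at p under 0.05 and 0 higher (10.6% and 10.9% of all genes), and DESeq2 called 13 lower and 0 higher (6.28% and 5.44%). Npm1 had 3900, 4517, 3950, 5018 and 4897 footprint CPM with DMSO and 1732 to 2526 with torin 1 (median 2234). No torin 1 library came near the DMSO libraries, and the level fell by 1.01 on the log2 scale (SE 0.11, adjusted p = 2.03e-05), a change of -50.4%. Ncl had 695, 995, 926, 989 and 972 CPM with DMSO and 343 to 878 with torin 1 (log2 change -0.41 ± 0.19, adjusted p = 0.23).

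Rrs1 had 56.4, 65.9, 47.98, 38.4 and 39.98 footprint CPM in Ctu1 iKO with DMSO and 15.7 to 30.4 with torin 1 (median 22.1). The groups did not overlap, and it fell by 1.15 on the log2 scale (SE 0.19, adjusted p = 0.00144). Nip7 had 66.7, 70.7, 72.5, 59.6 and 68.8 CPM with DMSO and 36.4 to 48.2 with torin 1 (log2 change -0.73 ± 0.10, adjusted p = 0.000382). Ddx21, an RNA helicase of rRNA transcription and processing, had 141, 180, 176, 177 and 189 CPM with DMSO and 57.8 to 140 with torin 1, just below the lowest DMSO library (log2 change -0.74 ± 0.18, adjusted p = 0.022). Dimt1, a dimethyltransferase of the small-subunit rRNA, gave -0.55 ± 0.14 (adjusted p = 0.0296), Wdr43 -0.47 ± 0.13 (adjusted p = 0.0439) and Utp3 -0.43 ± 0.12 (adjusted p = 0.0439), each without overlap. Rrp1b fell by 0.51 (SE 0.14, adjusted p = 0.0374), without overlap, and Nop2 by 0.59 (SE 0.16, adjusted p = 0.0371), with overlap, on the log2 scale.

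The other groups of factors gave no call in Ctu1 iKO footprints. Log2 changes were -0.05 ± 0.13 for Fbl, -0.14 ± 0.11 for Nop56 and -0.21 ± 0.13 for Nop58. They ran from -0.39 ± 0.14 (Nolc1) to -0.01 ± 0.11 (Gar1) in the box H/ACA group, with Dkc1 at -0.05 ± 0.14, and from -0.48 ± 0.19 (Polr1b) to 0.09 ± 0.15 (Polr1a) among RNA polymerase I factors. Heatr1 gave -0.22 ± 0.24, Wdr3 -0.22 ± 0.26, Utp18 -0.42 ± 0.14, Utp14a -0.56 ± 0.19, Utp20 0.18 ± 0.27 and Pes1 0.05 ± 0.10. Groups did not overlap, with torin 1 lower, for 11 factors and for 4.69% of all genes. The count of 9 fell to 5 without Ctu1 iKO DMSO replicate 2, 3 or 5 or Ctu1 iKO torin 1 replicate 2, 3 or 5 and to 4 without Ctu1 iKO DMSO replicate 4, where 3.25% to 3.9% of all genes were called lower. It was 4 with library totals in place of TMM factors (3.22%), 2 with replicates 1 to 3 alone (1.49%) and 12 without replicate 1 of every group (4.92%). It was 15 with the replicate number as a block (5.35%), a pairing not established in Ctu1 iKO. With a term for replicates 1 and 2 against 3 to 6, a split that no label gives, it was 18 (7.17%). Npm1, Rrs1 and Nip7 were called in all 11 fits without a library. Wdr43 was called in 1 of them, Utp3 and Nop2 in 3, Rrp1b in 4, Dimt1 in 6, and Ddx21 in all but those without Ctu1 iKO DMSO replicate 5 or Ctu1 iKO torin 1 replicate 5.

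**Figure D2:**
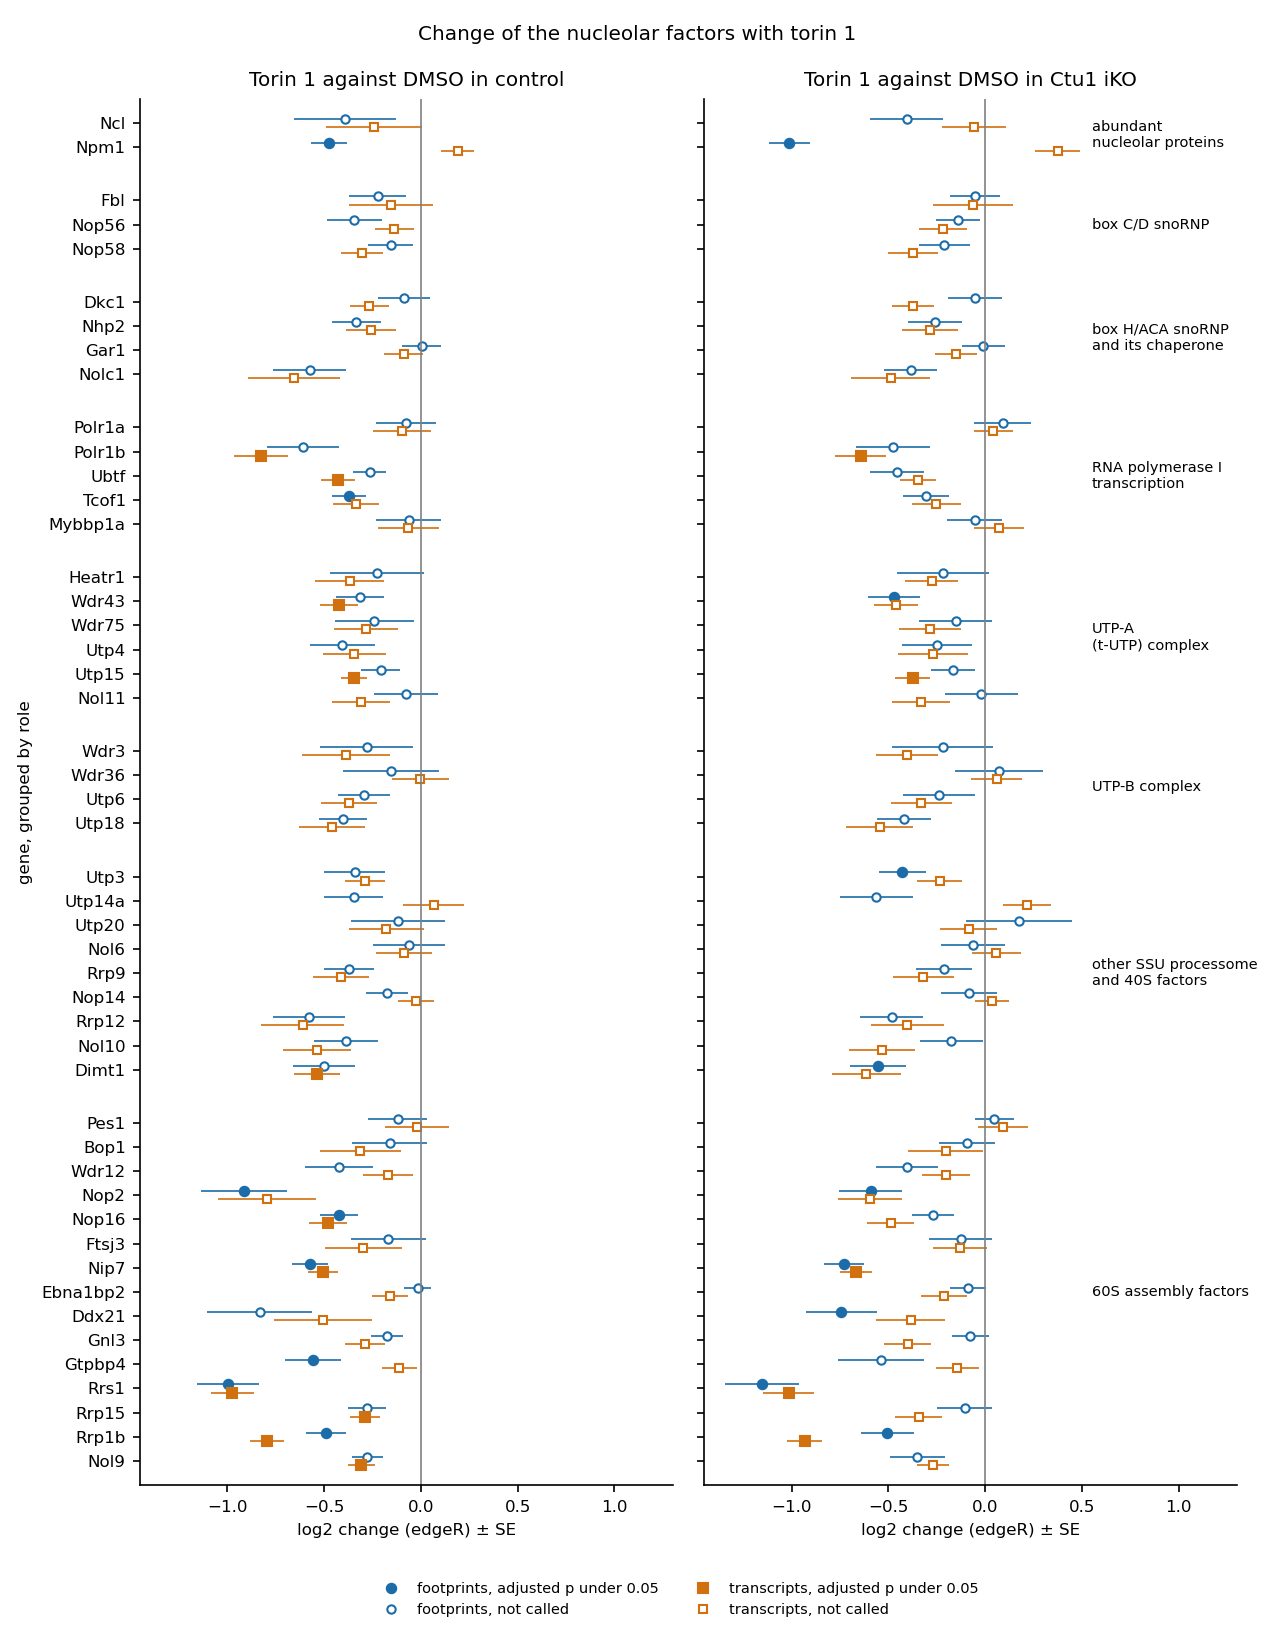
Log2 change with torin 1 (horizontal axis, edgeR, bars ± SE) of each of the 48 factors, grouped by role, in control (left) and Ctu1 iKO (right); blue circles are footprints, orange squares transcripts, and filled symbols have an adjusted p under 0.05. Most symbols lie left of 0, Rrs1 lies between -1.15 and -0.97 in both assays and both genotypes, and Npm1 and Utp14a in both genotypes have footprints left and transcripts right of 0, as do Mybbp1a, Nol6 and Nop14 in Ctu1 iKO, with values between -0.08 and 0.07.

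Transcripts of the factors were compared in the same way. In control cells, torin 1 lowered the transcripts of 11 of 48 factors and raised none, where 7.4% of 9617 genes were called lower and 5.69% higher. The median log2 change of transcripts was -0.31, against 0.00 over all genes, with 46 of 48 factors and 4786 of 9617 genes below 0. Before adjustment, 23 transcripts were lower at p under 0.05 and 0 higher (15.2% and 12.4% of all genes), and DESeq2 called 16 lower and 0 higher (11% and 9.38%). Rrs1 had 81.2, 80.7 and 91.2 transcript CPM with DMSO and 37.1, 42.6 and 49.3 with torin 1 (log2 change -0.97 ± 0.11, adjusted p = 0.00285). Polr1b had 85.2, 93.1 and 111 CPM with DMSO and 45.5, 56.1 and 62.0 with torin 1 (log2 change -0.83 ± 0.14, adjusted p = 0.00997). Rrp1b had 97.9, 103 and 110 CPM with DMSO and 53.4, 63.3 and 62.9 with torin 1 (log2 change -0.80 ± 0.09, adjusted p = 0.0026). In all 3 genes the torin 1 libraries lay below the DMSO libraries without overlap.

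The other transcripts called in control were those of Dimt1 (log2 change -0.54 ± 0.12), Nip7 (-0.50 ± 0.08), Nop16 (-0.48 ± 0.10), Ubtf, the UBF factor that opens rRNA genes to RNA polymerase I (-0.43 ± 0.09), Wdr43 (-0.42 ± 0.10), Utp15 (-0.35 ± 0.07), the RNA kinase Nol9 (-0.31 ± 0.07) and Rrp15 (-0.29 ± 0.08). Their adjusted p lay between 0.00739 and 0.0457. Nop2 transcripts were 90.0, 102 and 131 CPM with DMSO and 39.8, 64.5 and 81.8 with torin 1, which do not overlap, and the log2 change of -0.80 ± 0.25 did not pass (adjusted p = 0.0861). Transcript log2 changes of the remaining representatives were -0.24 ± 0.25 for Ncl, -0.15 ± 0.22 for Fbl, -0.14 ± 0.10 for Nop56, -0.30 ± 0.11 for Nop58, -0.27 ± 0.10 for Dkc1, -0.37 ± 0.18 for Heatr1, -0.39 ± 0.23 for Wdr3, -0.18 ± 0.19 for Utp20 and -0.02 ± 0.17 for Pes1, and Nol11 gave -0.31 ± 0.15. The chaperone Nolc1 (-0.66 ± 0.24), Rrp12 (-0.61 ± 0.21) and Utp18 (-0.46 ± 0.17) had the lowest uncalled values of their groups. Groups did not overlap, with torin 1 lower, for 22 factors and for 17.7% of all genes.

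In Ctu1 iKO cells, transcripts of 5 factors fell with torin 1 and none rose, where 4.52% of 9619 genes were called lower and 3.73% higher. The median was -0.28 (all genes 0.00), with 40 of 48 factors and 4743 of 9619 genes below 0. By the unadjusted p, 19 were lower at p under 0.05 and 1 higher (13.2% and 11.6% of all genes), and DESeq2 called 15 lower and 1 higher (8.49% and 8.23%). Rrs1 had 62.7, 60.6 and 69.5 transcript CPM with DMSO and 26.4, 33.8 and 36.0 with torin 1, without overlap (log2 change -1.02 ± 0.13, adjusted p = 0.00781). Rrp1b had 71.4, 74.9 and 76.5 CPM with DMSO and 35.4, 42.6 and 39.7 with torin 1 (log2 change -0.93 ± 0.09, adjusted p = 0.00364). Nip7 (-0.67 ± 0.08, adjusted p = 0.00735), Polr1b (-0.64 ± 0.13, adjusted p = 0.0289) and Utp15 (-0.38 ± 0.09, adjusted p = 0.0467) were the others. Transcripts of 18 factors did not overlap between the groups, with torin 1 lower, as did those of 15.2% of all genes. Log2 changes were -0.06 ± 0.17 for Ncl, -0.06 ± 0.21 for Fbl, -0.22 ± 0.13 for Nop56, -0.37 ± 0.13 for Nop58, -0.37 ± 0.11 for Dkc1, -0.28 ± 0.14 for Heatr1, -0.40 ± 0.16 for Wdr3, -0.09 ± 0.15 for Utp20, 0.09 ± 0.13 for Pes1, -0.60 ± 0.17 for Nop2 and -0.33 ± 0.15 for Nol11, none called in this fit.

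With 3 libraries a group, both counts of called transcripts depended on single libraries. In control, the count of 11 became 5, 4 and 5 without control DMSO replicate 1, 2 and 3, and 7, 6 and 17 without control torin 1 replicate 1, 2 and 3, where 2.43% to 7.4% of all genes were called lower. In Ctu1 iKO, the count of 5 became 3, 2 and 3 without Ctu1 iKO DMSO replicate 1, 2 and 3, and 3, 3 and 16 without Ctu1 iKO torin 1 replicate 1, 2 and 3, where 0.593% to 6.58% were. Without replicate 1 of every group the counts were 2 and 0 (0.728% and 0% of all genes). Rrs1 and Rrp1b were called in all 6 of the fits without a single library in both genotypes, as were Nip7 and Polr1b in control. Same-numbered RNA-seq libraries deviated together. With the replicate number as a block, 38 factors were called lower and 1 higher in control (23% and 20.7% of all genes) and 33 lower and 1 higher in Ctu1 iKO (18.1% and 17.1%), the higher being Npm1 each time. The block called all 6 UTP-A transcripts lower in both genotypes, 3 of 4 UTP-B transcripts, 6 and 4 of the 9 other small-subunit transcripts and 13 and 12 of the 15 large-subunit transcripts.

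**Figure D3:**
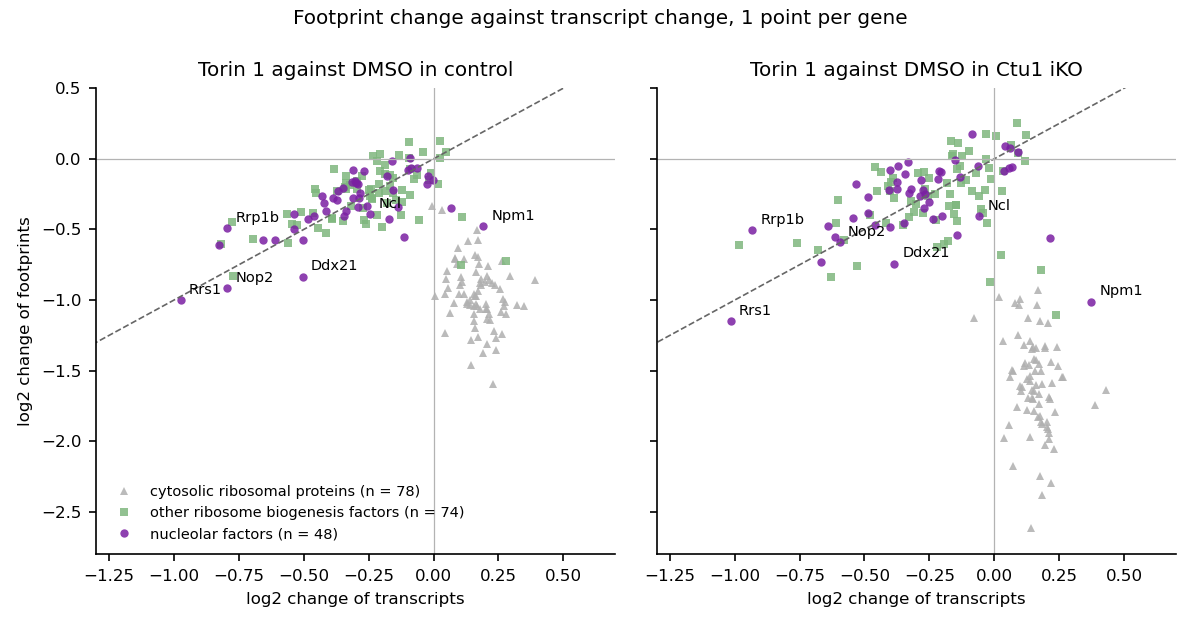
Log2 change of footprints (vertical axis) against log2 change of transcripts (horizontal axis) with torin 1 in control (left) and Ctu1 iKO (right), 1 point per gene, for the 48 nucleolar factors, 74 other ribosome biogenesis factors and 78 cytosolic ribosomal proteins; on the dashed line both changes are equal. Most nucleolar factors lie near the dashed line, with medians of -0.30 for footprints and -0.31 for transcripts in control. Npm1 lies below it in both genotypes, as does Utp14a (footprints -0.35 and transcripts 0.07 in control, -0.56 and 0.22 in Ctu1 iKO), and the ribosomal proteins lie far below it.

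Translational efficiency, the change of footprints relative to transcripts, was tested in 1 model with the libraries of replicates 1 to 3 of both assays. With torin 1 in control cells, 0 of 48 factors were called (edgeR), where 1.14% of 9848 genes were. At an unadjusted p under 0.05, 2 were lower and 0 higher (6.61% of all genes in either direction), and DESeq2 called 1 (2.38%). The median log2 change of translational efficiency was 0.01 over the factors and 0.03 over all genes. In Ctu1 iKO cells, 1 factor was called, Npm1, where 1.67% of 9845 genes were, with 2 lower and 0 higher at an unadjusted p under 0.05 (9.05% in either direction) and 1 called by DESeq2 (3.23%), and the medians were -0.00 and 0.03. By role, control values ran from -0.52 ± 0.23 for Gtpbp4 to 0.39 ± 0.18 for Rrp1b among large-subunit factors and stood at -0.30 ± 0.32 for Utp14a among small-subunit factors. In Ctu1 iKO, Utp14a gave -0.85 ± 0.30 (adjusted p = 0.328). Log2 changes of the representatives other than Npm1 lay between -0.30 ± 0.58 (Ncl) and 0.21 ± 0.35 (Polr1b) in control and between -0.40 ± 0.39 (Ncl) and 0.33 ± 0.25 (Dkc1) in Ctu1 iKO.

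The assays differed most at Npm1. Its log2 ratio of footprint to transcript CPM was 0.31, 0.33 and 0.30 in control with DMSO and -0.60, -0.38 and -0.35 with torin 1, and 0.09, 0.16 and -0.09 in Ctu1 iKO with DMSO and -1.51, -1.06 and -1.27 with torin 1. The torin 1 cultures lay below the DMSO cultures in both genotypes, without overlap. Transcripts went the other way: Npm1 had 4396, 4595 and 4984 transcript CPM in control with DMSO and 5047, 5086 and 5829 with torin 1, and 3660, 4039 and 4210 in Ctu1 iKO with DMSO and 4921, 4640 and 5996 with torin 1. The transcript groups did not overlap, at log2 changes of 0.19 ± 0.08 (adjusted p = 0.194) and 0.37 ± 0.12 (adjusted p = 0.0954), which passed with the replicate number as a block (adjusted p = 0.00144 and 0.00231). The translational efficiency of Npm1 gave a log2 change of -0.74 ± 0.16 in control (adjusted p = 0.0572). It fell by 1.32 in Ctu1 iKO (SE 0.20, adjusted p = 0.00209). Both libraries of a culture come from the same lysate, and with the culture as a block Npm1 was called in control as well (log2 change -0.75, adjusted p = 0.00421) and in Ctu1 iKO (-1.33, adjusted p = 0.000885), as the only factor, where 1.13% and 1.91% of all genes were. Without control torin 1 replicate 3, Npm1 was called in control also without that block, and without replicate 1 of every group it was not called in Ctu1 iKO.

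**Figure D4:**
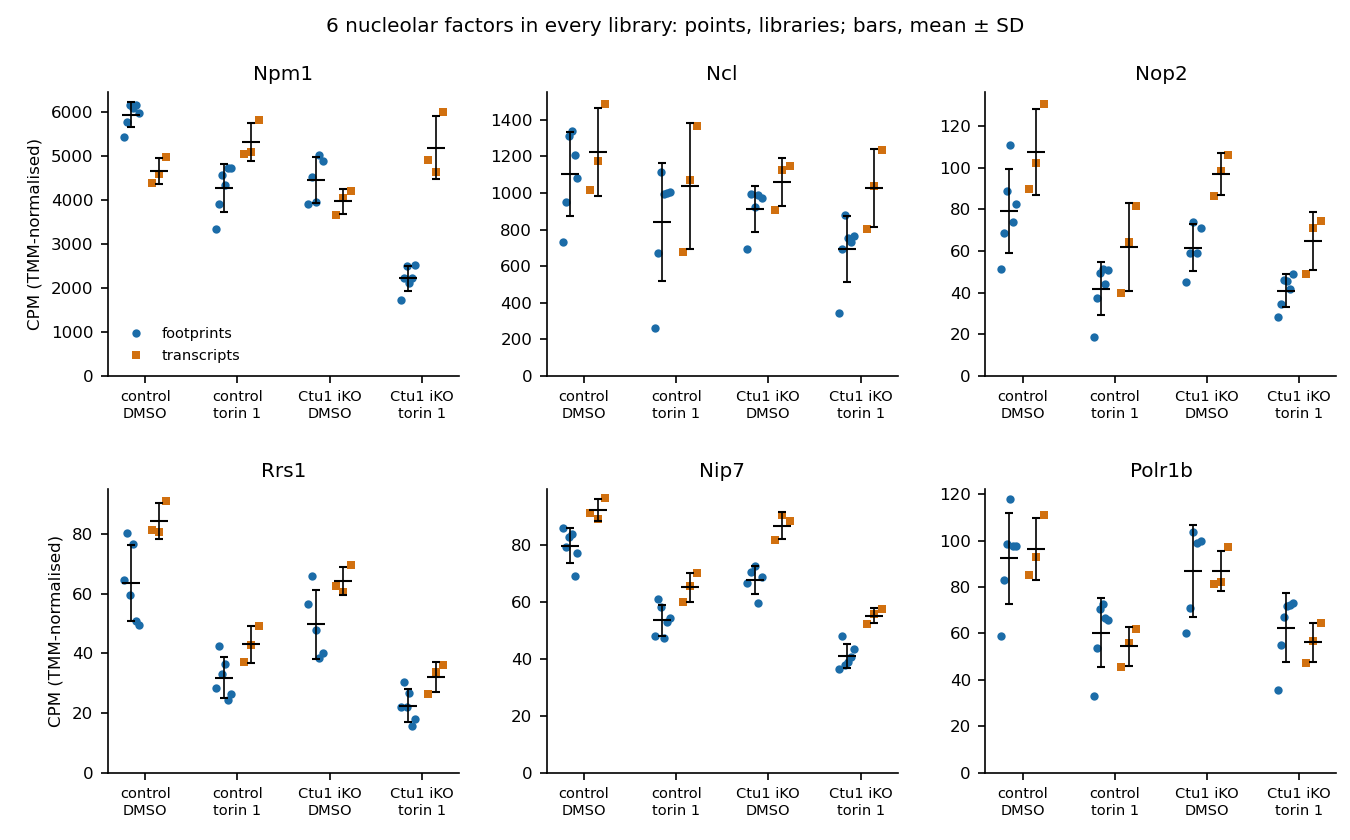
CPM of Npm1, Ncl, Nop2, Rrs1, Nip7 and Polr1b in every library (vertical axis, TMM-normalised), by genotype and treatment; blue circles are footprint and orange squares RNA-seq libraries, and black bars give mean ± SD. Npm1 footprints with torin 1 reach at most 2526 in Ctu1 iKO while its transcripts reach 5996, whereas for Rrs1 and Nip7 both assays are lower with torin 1. Polr1b transcripts are lower without overlap, while its footprint groups overlap.

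The next question was what the loss of Ctu1 changed. Ctu1 iKO cultures had doxycycline and induced Cas9, and some control cultures may not have. Differences between the genotypes cannot be told apart from effects of that treatment. With DMSO, footprints of 1 factor, Npm1, were lower in Ctu1 iKO and none higher, where 1.04% of 10397 genes were called lower and 1.63% higher. The paper reports raised ribosome occupancy at AAA codons after Ctu1 loss. Footprint counts therefore do not give protein output, and a lack of calls does not show unchanged synthesis. The paper's measurement of newly made proteins found ribosome biogenesis proteins particularly depleted in cells lacking Ctu1, and no such measure was made here. Npm1 had 5432 to 6163 footprint CPM in control (median 6046) and 3900 to 5018 in Ctu1 iKO (median 4517), without overlap. It changed by -24.8% (log2 change -0.41 ± 0.08, adjusted p = 0.0174), and was called in all 11 fits without a library. The median over the factors was -0.12, against -0.00 over all genes, and 39 of 48 factors were below 0, as were 5208 of 10397 genes. By the unadjusted p, 7 were lower at p under 0.05 and 0 higher (8.43% and 9.49% of all genes). Nop14, a small-subunit factor, was next (-0.38 ± 0.09, adjusted p = 0.0523), and DESeq2 called 2 factors lower and 0 higher (3.05% and 3.68% of all genes). Without control DMSO replicate 1, 2 factors were called lower (1.1% of all genes).

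Log2 footprint changes of the other representatives with DMSO were -0.27 ± 0.15 for Ncl, -0.14 ± 0.14 for Fbl, -0.28 ± 0.13 for Nop56, -0.02 ± 0.10 for Nop58, -0.01 ± 0.11 for Dkc1 and -0.08 ± 0.18 for Polr1b. They were -0.16 ± 0.23 for Heatr1, -0.42 ± 0.20 for Wdr3, -0.37 ± 0.20 for Utp20, 0.01 ± 0.12 for Pes1 and -0.36 ± 0.18 for Nop2. The highest values by role were those of Nol6 (0.26 ± 0.16), Wdr36 (0.13 ± 0.22) and Ubtf (0.11 ± 0.11). None of these passed.

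With torin 1, Npm1 was again the only factor with lower footprints in Ctu1 iKO and none was higher, where 2.6% of 9913 genes were called lower and 2.23% higher. Control libraries had 3332 to 4736 footprint CPM (median 4464) and Ctu1 iKO libraries 1732 to 2526 (median 2234), so that every Ctu1 iKO value was below every control value. Npm1 changed by -48.0% (log2 change -0.94 ± 0.11, adjusted p = 0.000193) and was called in all 12 fits without a library. The median over the factors was -0.07, against 0.01 over all genes, with 34 of 48 below 0. By the unadjusted p, 6 were lower at p under 0.05 and 1 higher (8.93% and 9.87% of all genes), and DESeq2 called 3 lower and 0 higher (4.37% and 4.13%). Nip7 (-0.39 ± 0.11, adjusted p = 0.0515), Wdr43 (-0.42 ± 0.14) and Rrp1b (-0.36 ± 0.13) had the next lowest p, and Rrs1 gave -0.50 ± 0.18. Log2 footprint changes were -0.28 ± 0.29 for Ncl, 0.04 ± 0.14 for Fbl, -0.08 ± 0.13 for Nop56, -0.07 ± 0.14 for Nop58, 0.02 ± 0.15 for Dkc1 and 0.06 ± 0.20 for Polr1b. They were -0.15 ± 0.25 for Heatr1, -0.36 ± 0.29 for Wdr3, -0.07 ± 0.30 for Utp20, 0.18 ± 0.14 for Pes1 and -0.03 ± 0.22 for Nop2, none called. Same-numbered torin 1 cultures of both genotypes deviated together, and with the replicate number as a block 7 factors were called lower (Npm1, Wdr43, Wdr3, Nip7, Gtpbp4, Rrs1 and Rrp1b) and 1 higher (Wdr36, log2 change 0.40), where 7.35% and 7.02% of all genes were. Without control torin 1 replicate 1, or without Ctu1 iKO torin 1 replicate 2, 2 factors were called lower (2.54% and 2.12% of all genes).

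Transcripts of 3 factors were lower in Ctu1 iKO with DMSO and none higher, where 1.8% of 10119 genes were called lower and 3.32% higher. Rrp1b, a nucleolar partner of protein phosphatase 1, had 97.9, 103 and 110 transcript CPM in control and 71.4, 74.9 and 76.5 in Ctu1 iKO (log2 change -0.46 ± 0.07, adjusted p = 0.0185). Rrs1 (-0.37 ± 0.08, adjusted p = 0.0458) and Wdr43 (-0.37 ± 0.07, adjusted p = 0.0345) were the others, and in none of the 3 did the groups overlap. The median was -0.07 (all genes -0.00), with 37 of 48 below 0. By the unadjusted p, 9 were lower at p under 0.05 and 0 higher (11.5% and 12.9% of all genes), and DESeq2 called 5 lower and 0 higher (6.8% and 8.32%). The transcript change of Npm1 was -0.21 ± 0.08 (adjusted p = 0.168), and those of the other representatives lay between -0.36 ± 0.13 (Wdr3) and 0.08 ± 0.12 (Pes1). The count of 3 became 1, 0 and 1 without control DMSO replicate 1, 2 and 3 (0.128%, 0% and 0.336% of all genes) and 0 without Ctu1 iKO DMSO replicate 1 or 2 (0.0198% and 0.0691%). With the replicate number as a block, 9 factors were called lower and 0 higher (13.6% and 14.3% of all genes), with Npm1, Tcof1, Wdr3, Nop14, Ebna1bp2 and Nol9 added.

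With torin 1, 0 transcripts of the factors were called between the genotypes (edgeR), where 0.352% of 9650 genes were called lower and 0.953% higher. At an unadjusted p under 0.05, 4 were lower and 0 higher (8.93% and 11.1% of all genes), and DESeq2 called 2 lower and 0 higher (4.78% and 6.54%). Rrp1b had 53.4, 63.3 and 62.9 transcript CPM in control and 35.4, 42.6 and 39.7 in Ctu1 iKO, without overlap (log2 change -0.60 ± 0.11, adjusted p = 0.0507), and Npm1 gave -0.03 ± 0.12. The other representatives lay between -0.37 ± 0.25 (Wdr3) and 0.19 ± 0.17 (Pes1). The replicate block called 9 lower and 4 higher (15.5% and 17.3% of all genes), the higher being Utp14a, Nol6, Pes1 and Bop1, with log2 changes of 0.17 to 0.24. Without Ctu1 iKO torin 1 replicate 3, 1 factor was called lower without the block (1.24% of all genes). Translational efficiency between the genotypes gave 0 calls among the factors with DMSO and 0 with torin 1 (edgeR), where 0% of 10386 and 0.111% of 9901 genes were called. At an unadjusted p under 0.05, 1 factor was lower and 0 higher each time (3.84% and 4.73% of all genes in either direction), and DESeq2 called 0 each time (0.202% and 1%). Npm1 had log2 changes of -0.28 ± 0.12 and -0.86 ± 0.22 (adjusted p = 0.31), and with the replicate number as a block it was the factor called with torin 1 (adjusted p = 0.00155), where 1.07% of all genes were. With the culture as a block it was not called (log2 change -0.86, adjusted p = 0.0849), nor was any other factor, and 0.141% of all genes were.

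Whether torin 1 acted differently in the genotypes was tested as an interaction. In footprints, 0 of 48 factors were called (edgeR; 1 lower and 0 higher at an unadjusted p under 0.05, and 1 by DESeq2), where 0.639% of 9857 genes were, and 4.67% and 1.09% by the other criteria. The single factor in question was Npm1, whose footprints changed with torin 1 by a further -0.53 ± 0.14 on the log2 scale in Ctu1 iKO (adjusted p = 0.108), and it was called without control torin 1 replicate 1 (0.629% of all genes lower). With the replicate number as a block it was called as well (log2 change -0.55, SE 0.09, edgeR adjusted p = 0.00131), where 1.35% of all genes were lower and 0.0609% higher, though the deviations did not establish that the numbers pair footprint cultures with DMSO or within Ctu1 iKO. The other representatives lay between -0.05 ± 0.18 (Nop58) and 0.33 ± 0.29 (Nop2), at a median of 0.06 over the factors and 0.01 over all genes. In transcripts, 0 factors were called (edgeR; 0 at an unadjusted p under 0.05 and 0 by DESeq2), where 0% of 9616 genes were, and 1.46% and 0.0312% by the other criteria, and Npm1 gave 0.19 ± 0.15.

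Set beside other parts of the ribosome pathway, the nucleolar factors had smaller footprint changes than the ribosomal proteins. Footprints of 76 of 78 cytosolic ribosomal proteins fell with torin 1 in control (median log2 change -0.97) and of all 78 in Ctu1 iKO (median -1.59), while their transcripts gave medians of 0.17 and 0.16 with 7 and 1 called higher and 0 lower. Over all genes, 4.33% and 4.52% of footprints were called lower, and 5.69% and 3.73% of transcripts higher. Of 74 other ribosome biogenesis factors, footprints of 13 and 15 fell (medians -0.23 and -0.24), and transcripts of 15 and 7 fell (medians -0.23 and -0.17), where 7.4% and 4.52% of all transcripts were called lower. The greatest falls among these in control were, for footprints, Bysl (-0.83 ± 0.14), Polr1c (-0.75 ± 0.08) and Nsa2 (-0.72 ± 0.09), and in Ctu1 iKO Nsa2 (-1.11 ± 0.14), Taf1d (-0.87 ± 0.19) and Mak16 (-0.84 ± 0.15). In control, 1 transcript of the 74 was called higher, that of Nsa2 (log2 change 0.28 ± 0.07, adjusted p = 0.0349 in edgeR). With torin 1, translational efficiency was called lower for 2 of the 74 in each genotype (1.07% and 1.58% of all genes). Nsa2 gave log2 changes of -1.02 ± 0.14 in control and -1.43 ± 0.24 in Ctu1 iKO. Polr1c gave -0.77 ± 0.15 and -0.997 ± 0.22. Median changes in translational efficiency over the 74 were -0.01 and -0.02. The median difference between footprint and transcript change with torin 1 was 0.03 and 0.04 over the nucleolar factors, in control and Ctu1 iKO, and -1.13 and -1.75 over the ribosomal proteins. Footprint changes here rest on all replicates and transcript changes on replicates 1 to 3. Between the genotypes, 0 ribosomal protein footprints were called lower with DMSO and 70 of 78 with torin 1, against 1 of the 48 nucleolar factors in each, 1.04% of all genes with DMSO and 2.6% with torin 1. Of the 74 other factors, 2 were lower with DMSO (Pa2g4 and Nifk) and 1 higher (Noc3l), where 1.63% of all genes were higher. With torin 1, 4 of the 74 were lower, and the greatest falls were those of Pa2g4, Nsa2 and Sdad1. With the replicate block, 7 nucleolar factors were lower and 1 was higher with torin 1 (7.35% and 7.02% of all genes). These lists are described by counts and medians, and no test compared them.

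The factors with the most AAA codons were set beside those with the fewest. Over the 12 factors with 4.30% to 8.40% AAA, the median log2 footprint change with Ctu1 loss was -0.23 with DMSO and -0.20 with torin 1, with 10 of 12 below 0 each time. Over the 12 with 0.612% to 2.38% AAA it was -0.10 and 0.05, with 9 and 5 below 0. Across the 48 factors, Pearson's r between AAA share and footprint change was -0.23 with DMSO and -0.42 with torin 1, and -0.16 and -0.28 without Npm1. Across 9590 genes it was -0.01 and -0.05. These values are across genes of the same libraries, which are not independent, and carry no test. Raised occupancy at AAA codons, which the paper reports after Ctu1 loss, adds to the same footprint counts and was not separated. Npm1 has the second highest AAA share and the lowest change with torin 1, whereas Nop58, which has the highest share, gave footprint changes of -0.02 ± 0.10 with DMSO and -0.07 ± 0.14 with torin 1, and Ncl gave -0.27 ± 0.15 and -0.28 ± 0.29. For translational efficiency, r over the factors was -0.16 with DMSO and -0.18 with torin 1, -0.06 and 0.03 without Npm1, and -0.07 and 0.07 over all genes. The median change in translational efficiency of the 12 factors with the most AAA was -0.01 with DMSO, with 7 of 12 below 0, and 0.02 with torin 1, with 5 below 0. Over the 12 with the least it was 0.01 and -0.03, with 4 and 8 below 0.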

How the data were processed

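Ribosome profiling and poly(A) RNA-seq were performed by the authors on lysates of the same 23 cultures. The authors deposited raw read counts per gene for each library, with entries filtered on footprint counts, the DMSO libraries in 1 table of entries and the torin 1 libraries in another. The submitters' processing notes name cutadapt 3.4, UMI-tools 1.1.1, STAR 2.5.3a, mm10 and GRCm38. The study's methods, however, name a human build for the alignment of footprints, and this conflict was not settled, although the entries carry mouse gene symbols. Footprints were counted per gene by STAR itself, while the counter of the RNA-seq reads is not given in the sources used here. The depth of each library sets the precision of its values.

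Counts were tested with the quasi-likelihood test of edgeR 4.0.16 (R 4.3.3), with TMM normalisation, a minimum mean count of 10 per gene, and Benjamini-Hochberg adjustment over all genes tested, at an adjusted p under 0.05. Translational efficiency was the interaction of assay and group over replicates 1 to 3 of both assays. CPM values were TMM-normalised within each assay. The fits were tried on simulated counts with independent libraries and known folds, a setting without the shared deviations described below. Alternatives were DESeq2 1.42.0, other normalisations and filters, left-out libraries, a batch term, RNA-seq counts divided by 2 (added after seeing the data) and the replicate number as a block. Numbers were taken to pair cultures where every same-numbered pair deviated together (r over 0.1): footprints of control with DMSO and torin 1 (0.40 to 0.64), footprints of both genotypes with torin 1 (0.32 to 0.52) and all RNA-seq groups (0.35 to 0.76). The methods call the ribosome profiling replicates biologically independent and collected on successive days, but describe 2 of them, and which replicate numbers share a day is not stated. The members, the other lists and the rule for named genes were chosen with earlier results of these data known. The rule named, in each comparison, Ncl, Npm1, Fbl, Nop56, Nop58, Dkc1, Polr1b, Heatr1, Wdr3, Utp20, Pes1 and Nop2, up to 5 called factors in each direction whose groups did not overlap, the lowest and highest factor of each role, and up to 3 called other factors. Those other factors are not listed for every comparison, and some further factors were named after their values were seen.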

Additional observations from a re-analysis of the deposited data

Results flagged for a closer look

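Of 108 groups of 5 or 6 footprint libraries, 12 held a library far from the rest by Dixon's test at the 95% level, where chance gives about 1 in 20. In 11 of the 12 it was replicate 1, which was low. Ncl had 262 CPM in replicate 1 of control with torin 1 (others 675 to 1116), 695 in replicate 1 of Ctu1 iKO with DMSO (others 926 to 995) and 343 in replicate 1 of Ctu1 iKO with torin 1 (others 693 to 878). In replicate 1 of control with torin 1, Utp3 had 14.9 CPM (others 27.4 to 31.4), Pes1 85.3 (others 144 to 179), Nop2 18.6 (others 37.4 to 51.6) and Rrp1b 47.3 (others 54.0 to 57.9). Wdr43 had 101 CPM in replicate 1 of Ctu1 iKO with torin 1 (others 155 to 173), and Ddx21 had 141 in replicate 1 of Ctu1 iKO with DMSO (others 176 to 189). The mean log2 CPM over the 48 factors was 5.92 in replicate 1 of control with torin 1 (others 6.43 to 6.67) and 5.96 in replicate 1 of Ctu1 iKO with torin 1 (others 6.36 to 6.58). The remaining case was Nol9, with 147 CPM in replicate 4 of Ctu1 iKO with DMSO (others 121 to 127). The cause was not tested.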

How the results depend on the processing

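No called change of a factor turned its sign under an alternative. Medians over the factors that lay near 0 did, for footprints with Ctu1 loss with torin 1 in 1 of 21 alternatives (without Ctu1 iKO torin 1 replicate 1), for the footprint interaction in 2 of 32 (without control torin 1 replicate 1 or Ctu1 iKO DMSO replicate 1), for transcripts with Ctu1 loss in 1 of 16 with DMSO (without control DMSO replicate 3) and 2 of 16 with torin 1 (without control torin 1 replicate 3 or Ctu1 iKO torin 1 replicate 1), for the transcript interaction in 5 of 22, and for translational efficiency in 2 to 8 of 17. Medians with torin 1 in footprints and transcripts stayed below 0 in all. The cause of the differences below was not tested. Counts of factors called lower were as follows, in the order of footprints with torin 1 in control (8 as reported) and in Ctu1 iKO (9), and footprints with Ctu1 loss with DMSO (1) and with torin 1 (1). Shares of all genes called lower are in parentheses (4.33%, 4.52%, 1.04% and 2.6% as reported). DESeq2 gave 15, 13, 2 and 3 (5.95%, 6.28%, 3.05% and 4.37%), replicates 1 to 3 alone 0, 2, 0 and 0 (1.09%, 1.49%, 0% and 0.0101%), and a batch term for replicates 1 and 2 against 3 to 6 gave 22, 18, 3 and 4 (6.86%, 7.17%, 3.43% and 4.82%). No label names such a batch. The replicate block gave 30, 15, 1 and 7 (10.6%, 5.35%, 1.63% and 7.35%), with 1 higher in the last, where the pairing in Ctu1 iKO and that with DMSO were not established by the deviations (r 0.012 to 0.36 and -0.067 to 0.43, with 2 of 5 and 3 of 5 best matched by their own number). Library totals alone gave 4 with torin 1 in Ctu1 iKO (3.22%) and filterByExpr gave 2 in the last (2.75%). For the footprint interaction (0), DESeq2, the replicate block and the batch term gave 1 each (1.01%, 1.35% and 1.18%).

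For transcripts, the counts were 11 with torin 1 in control, 5 in Ctu1 iKO, 3 with Ctu1 loss with DMSO and 0 with torin 1. The replicate block gave 38, 33, 9 and 9 lower (23%, 18.1%, 13.6% and 15.5%) and 1, 1, 0 and 4 higher. DESeq2 gave 15 lower and 1 higher with torin 1 in Ctu1 iKO (8.49% and 8.23%), 5 with Ctu1 loss with DMSO (6.8%) and 2 in the last (4.78%). Library totals gave 10 with torin 1 in Ctu1 iKO (6.76%) and 1 in the last (0.425%). All replicates as labelled, which include the RNA-seq libraries set aside, gave 6, 0 and 17 in all but the last (4.86%, 0% and 12%), and replicates 1 and 2 alone gave 12 with torin 1 in Ctu1 iKO (5.58%). RNA-seq counts divided by 2 left every count of called factors as reported. For translational efficiency with torin 1 in control (0), DESeq2, the replicate block, the culture block, all replicates and replicates 1 and 2 alone gave 1 each (1.89%, 1.97%, 1.08%, 1.55% and 1.3%), and with Ctu1 loss with torin 1 (0), the replicate block and all replicates gave 1 each (1% and 1.07%). Library totals moved the median of translational efficiency over the factors to 0.14 and 0.17 with torin 1 in control and Ctu1 iKO and to 0.12 with Ctu1 loss with torin 1, while the median of all genes moved to 0.16, 0.20 and 0.09. All replicates as labelled moved the median of translational efficiency over the factors to -0.14 with torin 1 in Ctu1 iKO and to 0.12 with Ctu1 loss with DMSO. In footprints with torin 1, library totals placed the median of all genes at 0.10 and 0.11.

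Without single libraries, or without replicate 1 of every group (added after seeing the data), counts called lower ranged from 6 to 12 and 4 to 12 in footprints with torin 1 in control and Ctu1 iKO (3.48% to 4.27% and 3.25% to 5.36% of all genes), 1 to 2 with Ctu1 loss with DMSO and with torin 1 (0.529% to 1.1% and 1.81% to 3.41%) and 0 to 1 in the interaction (0.487% to 0.639%). In transcripts they ranged from 2 to 17, 0 to 16, 0 to 3 and 0 to 1 for the same 4 comparisons (0.728% to 7.4%, 0% to 6.58%, 0% to 1.63% and 0% to 1.24%), and in translational efficiency from 0 to 1 with torin 1 in both genotypes (0.305% to 1.01% and 0.832% to 1.58%). Counts called higher were 0 throughout. Median changes ranged, for footprints, from -0.37 to -0.23, -0.30 to -0.16, -0.17 to -0.05, -0.17 to 0.01 and -0.04 to 0.13 in the interaction, and for transcripts from -0.42 to -0.19, -0.40 to -0.18, -0.15 to 0.01, -0.17 to 0.07 and -0.09 to 0.16. For translational efficiency they ranged from -0.03 to 0.05, -0.03 to 0.02, -0.03 to 0.04 and -0.03 to 0.11. Over all alternatives, the values of the 12 factors named in every comparison and of those called in it stayed on the same side of the threshold in 3255 cases, crossed it upwards in 69 and downwards in 155, and in 275 a value called in neither fit changed its sign.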
